A study of Mus musculus with 4 samples.

Results

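Committed skeletal myocytes of day 11 gastruloids were the cells of that day whose Myog and Myh3 UMIs together reached 5 per 10000 UMIs and whose Myl7 stayed under 30 per 10000 UMIs. A UMI is the tag that counts 1 captured mRNA molecule once. Among the 8730 day 11 cells with 2000 or more UMIs and a mitochondrial share under 20%, 90 met this rule, which is 1.03% (95% interval 0.830 to 1.27%) of those cells, out of 31330 cells in all libraries together. They were set beside the 8640 other day 11 cells within the same limits, beside 194 of these that held a UMI of at least 2 of the 4 genes Msc, Pax7, Myf5 and Myod1 with Myog plus Myh3 under 5 per 10000 (called progenitors below), and beside 1614 with Myl7 of 30 or more per 10000 and Myog plus Myh3 under 5 (cardiomyocyte-type cells). The progenitor and cardiomyocyte-type sets shared 9 cells. The study asked whether gastruloids can form both heart and skeletal muscle. Gastruloids, which are aggregates of mouse embryonic stem cells that elongate and form tissues of the 3 germ layers, came from the wild-type line Zx1 and were grown to days 4, 5, 6 and 11, with a Wnt agonist early and cardiogenic factors from day 4. Each day was 1 library of pooled, dissociated gastruloids, so no difference was tested. Intervals are exact 95% intervals that cover counting error only.

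Progenitors of skeletal muscle are marked in the trunk by Pax3 and in the head by Tbx1, Msc and others. Pax7 later takes part in both. Skeletal muscle cells form when the proliferating progenitors switch on the bHLH factors Myf5 and Myod1. Myog then marks the committed cell, which leaves the cell cycle, starts the sarcomere genes with their embryonic forms first (such as the myosin heavy chain Myh3), and fuses with its neighbours through the membrane proteins Mymk (myomaker) and Mymx (myomixer) to make a multinucleated fibre. Myl7, the atrial myosin light chain, is made by cardiomyocytes in this system, which is why the rule sets it against Myog and Myh3.

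Myogenic bHLH factors bind E boxes, MEF2 proteins bind A/T-rich sites and serum response factor binds CArG boxes. The 250 bases before the annotated transcript start are therefore shown for Myog, a gene of the rule, and for Mylpf, Tnnc2 and Acta1, the marker genes that the rule did not use. They are RefSeq sequences of build GRCm38.p6, read 5′ to 3′ on the gene's strand, from chr1:134289754-134290003 (plus strand, Myog), chr7:127211358-127211607 (plus, Mylpf), chr2:164779735-164779984 (minus, Tnnc2) and chr8:123894776-123895025 (minus, Acta1). Capitals mark E boxes (CANNTG), a MEF2-type match (CTANNNNTA) and the CArG box, searched on both strands.
Myog: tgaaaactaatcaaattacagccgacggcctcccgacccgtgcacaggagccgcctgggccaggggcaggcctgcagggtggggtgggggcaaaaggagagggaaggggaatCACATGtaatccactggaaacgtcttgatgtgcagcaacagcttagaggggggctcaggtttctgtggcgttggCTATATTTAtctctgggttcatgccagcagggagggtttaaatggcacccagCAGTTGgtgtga
Mylpf: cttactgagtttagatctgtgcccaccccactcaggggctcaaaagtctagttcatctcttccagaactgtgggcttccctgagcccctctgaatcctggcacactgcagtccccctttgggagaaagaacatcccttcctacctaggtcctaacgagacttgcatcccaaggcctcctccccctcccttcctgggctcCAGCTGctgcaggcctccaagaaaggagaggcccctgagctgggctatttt
Tnnc2: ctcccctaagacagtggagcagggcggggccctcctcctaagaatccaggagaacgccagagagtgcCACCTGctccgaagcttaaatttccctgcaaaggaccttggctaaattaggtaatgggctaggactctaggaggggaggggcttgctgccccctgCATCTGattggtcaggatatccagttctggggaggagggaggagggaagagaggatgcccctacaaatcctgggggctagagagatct
Acta1: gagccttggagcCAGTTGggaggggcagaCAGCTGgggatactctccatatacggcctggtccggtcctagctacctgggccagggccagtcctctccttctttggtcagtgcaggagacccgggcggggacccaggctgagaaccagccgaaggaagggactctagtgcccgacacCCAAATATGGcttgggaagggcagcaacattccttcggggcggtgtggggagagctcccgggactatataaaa
Each window held an E box, as did all 9 of the windows found for the 15 genes with the largest ratios to the other cells, but so did 66.0% of the 27025 mouse promoter windows of this length. The narrower E box CAGCTG was in 5 of the 9 and in 12.8% of all windows. A MEF2-type match was in 4 of the 9 (19% of all windows), among them Myog and Myh3. The CArG box was in that of Acta1 only among the 9, and in 1.4% of all windows. These matches describe the letters and are no measure of binding.

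A pair of muscle microRNAs lies in the exons of a long noncoding gene that the library did count. Gm28653 (chr1:20669882-20684298, plus strand, build GRCm38.p6) was picked after its values were seen, because it carries Mir133b in the exons of 2 of its 2 transcripts and Mir206 in those of 1 of 2. The mature microRNAs, which have no poly(A) tail, were not measured; they are shown with the seed (bases 2 to 8) in capitals, from chr1:20679055-20679076 and chr1:20682834-20682855.
mmu-miR-206-3p: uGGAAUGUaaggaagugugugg
mmu-miR-133b-3p: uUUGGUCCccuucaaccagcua
Gm28653 stood at 119 (105 to 135) CPM in the myocytes, with a UMI in 67 of 90 cells, where CPM is a gene's summed UMIs per 1000000 UMIs summed over the cells of the set. Its level was 11.6 CPM in progenitors and 0.554 CPM in all other cells. In cardiomyocyte-type cells 1 UMI was counted, or 0.0241 CPM. The 2 seeds differ, so the microRNAs fall into separate seed families.

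The myocytes were selected on Myog, Myh3 and Myl7, so the values of these genes are a description and support nothing. Myog plus Myh3 ran from 5.92 to 62.6 per 10000 UMIs with a median of 28.2, and the fewest UMIs of both genes in a myocyte was 6 (median 53.5). All 90 cells held Myog (1.66 to 43.2 per 10000, median 16.1), the factor of the committed state. Myh3 was found in 69 of them (0 to 52.0, median 5.67). Close to the limit, 3 cells had 5 to under 6 per 10000, 3 had 4 to under 5, and the highest cell left out reached 4.88. Over the wider span of 1 to under 5 per 10000 there were 62 cells, so the limit does not fall in an empty gap. The limit on Myl7 removed 1 cell, which held 147 Myl7 UMIs per 10000 beside 15.9 of Myog plus Myh3, in 67317 UMIs. The highest Myl7 in a myocyte was 3.34 per 10000, and 54 of 90 held none. A further 11 cells over the Myog plus Myh3 limit failed the limits on UMIs or mitochondrial share. Progenitors and myocytes touched in both directions, since 64 of the 194 progenitors held a Myog or Myh3 UMI and 23 of the 90 myocytes held at least 2 of the 4 progenitor genes.

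**Figure D1:**
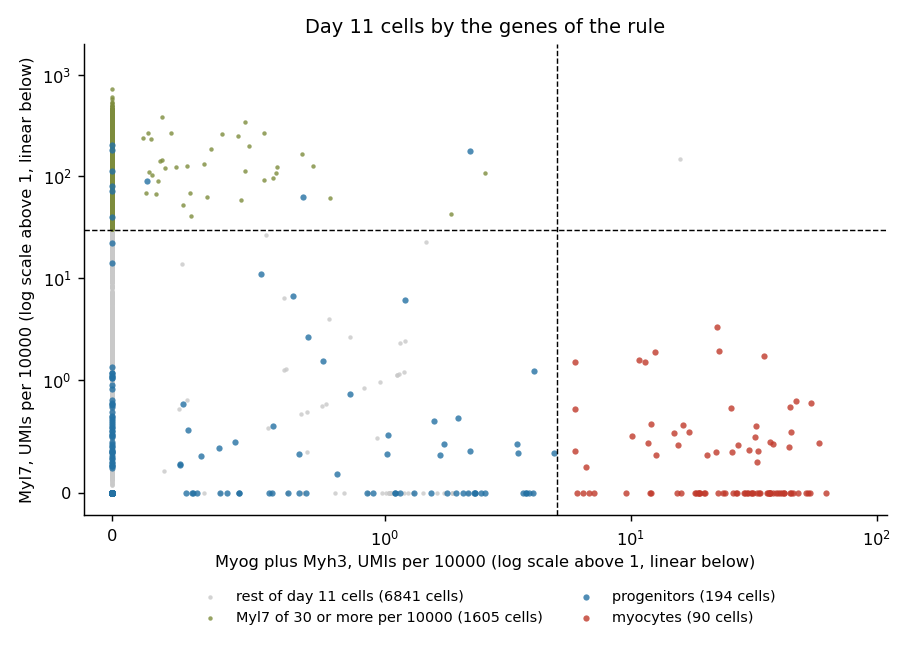
Myog plus Myh3 (horizontal axis) and Myl7 (vertical axis), each in UMIs per 10000 UMIs on a scale that is logarithmic above 1 and linear below, for each day 11 cell within the limits; the dashed lines are the limits of the rule (5 and 30). The 90 myocytes (red) reach 62.6 on the horizontal axis and stay at or below 3.34 on the vertical axis; a single cell lies beyond both lines, and the 9 cells in both other sets are drawn as progenitors.

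The myocytes were deep cells. Their UMIs ran from 2699 to 56954 with a median of 21562.5, against medians of 12011 in all other cells, 23076 in progenitors and 19744.5 in cardiomyocyte-type cells, and their mitochondrial share had a median of 2.39%. They held fewer different genes at equal depth: with each cell thinned to 5000 UMIs (88 of 90 reach that), the median was 1738 genes, against 1988, 1844.5 and 1935. The median doublet score was 0.0792, above the 0.0509 of all other cells, 0.0688 of progenitors and 0.0537 of cardiomyocyte-type cells. Among the highest 8% of scores of the day were 4 of 90 myocytes, 23 of 194 progenitors and 262 of 1614 cardiomyocyte-type cells. The part of doublets in the results was not tested beyond leaving those cells out. Libraries shared 5 to 23 cell barcodes between days, none of them a myocyte's. By the same rule days 4, 5 and 6 held 0 myocytes in 7202, 7408 and 5850 cells. The upper bounds of these shares were 0.0512, 0.0498 and 0.0630%. The libraries of these days held 5, 4 and 3 Myog UMIs, against 3868 on day 11. Their total UMIs were 182150138 to 236714826, against 149169498.

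The 3 marker genes outside the rule were held mostly by the selected cells. Mylpf, the fast skeletal regulatory light chain, stood at 6416 (6305 to 6527) CPM in the myocytes and 9.54 CPM in the other cells, a ratio of 673 (636 to 711). Per cell it ran from 0 to 459 per 10000 UMIs with a median of 23.5, and 74 of 90 cells held it. Tnnc2, the fast skeletal troponin C, stood at 2450 against 1.10 CPM, a ratio of 2225 (1902 to 2620), with 53 cells holding it. Acta1, the skeletal alpha-actin, stood at 1747 against 3.81 CPM, a ratio of 459 (419 to 502), in 47 cells. After thinning the cells with a UMI were 71.6% for Mylpf, 55.7% for Tnnc2 and 45.5% for Acta1. The shares were 5.57, 0.398 and 1.92% in cardiomyocyte-type cells and 4.12, 0.515 and 0% in progenitors. Free RNA was not measured. The 90 cells, 1.03% of the day's cells and 1.36% of its UMIs, thus held 90.2% of the Mylpf UMIs, 96.8% of the Tnnc2 UMIs and 86.3% of the Acta1 UMIs of day 11. Against the progenitors the ratios were 894 (646 to 1278), 1118 (624 to 2241) and 1461 (671 to 3985). These last rest on 36, 11 and 6 UMIs in the progenitors and moved beyond their intervals with the choice of progenitors: they were 210, 303 and 251 with progenitors taken by 2 UMIs of the 4 genes in sum, and that of Acta1 was 7890 without the 9 progenitors of high Myl7. Earlier libraries were not empty of the 3 genes: Mylpf had 4481, 5132 and 1474 UMIs on days 4, 5 and 6 and Acta1 had 59, 2342 and 419, in libraries with almost no Myog.

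The transcription factors split by role. Myod1, which commits cells to muscle, stood at 478 (448 to 509) CPM in the myocytes, 72.9 in progenitors and 3.06 in the other cells, and 89 of 90 myocytes held it. It is a gene of the progenitor definition, and the 2 sets are also divided by Myog plus Myh3. Its ratio to the progenitors, 6.55 (5.80 to 7.41), is therefore a description. Mef2c, which acts with the bHLH factors on sarcomere genes, was 19 times (16.4 to 22.1) higher than in progenitors, at 768 against 40.4 CPM. It was also 4.11 times its level in cardiomyocyte-type cells, where it stood at 187 CPM. The progenitor factors were low: Msc stood at 13.9 against 185 CPM in progenitors and Pax7 at 8.45 against 105. Both chose the progenitors. Tead4, which binds the MCAT sites of muscle genes, stood at 19.4 (0.996 in progenitors), and Myf6, the remaining myogenic bHLH factor, at 6.96 CPM (0.399 in progenitors) in 9 cells. Eya4 (40.3 against 37.7 CPM) and Six4 (21.4 against 14.1), which act upstream of Myod1, lay close to the progenitors. Of the list of myogenic regulators without Myog, 14 genes reached 20 CPM in either set, 2 were 4-fold or more higher in myocytes (Myod1 and Mef2c) and 2 were 4-fold or more lower (Pax7 and Msc), where the fold is taken on CPM plus 10. Only Mef2c of these lies outside the progenitor definition, so the count is a description. Over all 5728 genes so measured, 2.5% were that much higher and 0.384% that much lower, and the median log2 ratio was -0.17.

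Inhibitors of differentiation pointed the other way as a list, with no member passing 4-fold in either direction of 12 measured and a median log2 ratio of -1.19 to progenitors. Id1, Id2 and Id3, which tie up the partners of the bHLH factors, stood at 84.0, 44.7 and 229 CPM against 233, 137 and 543. The Notch targets Hes1 and Hey1 stood at 31.8 and 10.4 CPM against 84.5 and 53.2. The Notch ligand Dll1 was on the other side, at 23.4 against 10.2 CPM, a ratio of 2.30 (1.51 to 3.49). Hes6, which antagonises Hes1, was at 394 against 98.8 CPM, just under the fold used here. Mstn, the secreted brake on muscle growth, stood at 21.4 against 1.20 CPM and was held by 22 myocytes.

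The fusion genes were held mostly by the myocytes. Mymk stood at 384 (357 to 412) CPM, against 1.39 in progenitors, 0.499 in all other cells and 0.627 in cardiomyocyte-type cells, and 74 of 90 myocytes held it (0 to 16.8 per 10000, median 3.31). Mymx stood at 459 (430 to 489) CPM, against 4.98, 0.800 and 1.09, in 76 of 90 cells (0 to 25 per 10000, median 3.19). Both were found in 65 cells, Mymk alone in 9, Mymx alone in 11 and neither in 5. At equal depth 68.2% of the myocytes held Mymk and 67.0% held Mymx, against 0 and 0.199% of the cardiomyocyte-type cells. Earlier libraries held 422, 2385 and 82 Mymx UMIs on days 4, 5 and 6 but 0, 18 and 1 of Mymk. Of 10 measured fusion and adhesion genes 5 were 4-fold or more higher than in progenitors: Mymk, Mymx, Jam3, Itgb1bp2 and Cav3. None was lower by that much, and the median log2 ratio was 2.09. Cdh15 (M-cadherin), the adhesion molecule of muscle precursors, stood at 191 against 42.2 CPM, and N-cadherin (Cdh2) at 12.4 against 40.2 and, in cardiomyocyte-type cells, 173.

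The sarcomere lists held more genes past 4-fold than any other list. Of 21 measured thin-filament genes 15 were 4-fold or more higher than in progenitors and 1 lower (Tnni3), with a median log2 ratio of 3.50. Tpm2 stood at 4130 against 275 CPM, the giant ruler protein gene Neb at 1024 against 61.6, and the thin-filament assembly proteins Klhl41 and Lmod3 at 227 and 172 against 0.399 and 1.20. Of 21 thick-filament genes other than Myh3 and Myl7, 12 were higher and 3 lower (Myh6, Myl2 and Myl3), with a median of 2.18. Myh8, the perinatal myosin, stood at 230 (209 to 252) against 2.79 CPM, in 45 of 90 cells. The adult fast myosins were barely counted, Myh1 at 20.9, Myh2 at 11.4 and Myh4 at 3.98 CPM. Of 19 genes of the Z disc and titin filament 10 were higher and none lower, with a median of 2.16. Myot and Ankrd2, at 48.2 and 48.7 CPM, had no UMI in the progenitors. Desmin (Des), the intermediate filament of muscle, was in all 90 cells at 932 against 151 CPM.

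The lower side of these counts depended on 9 cells. The 9 progenitors with Myl7 of 30 or more per 10000 held 94.7% of the Myl7 UMIs of all 194, 95.8% of the Myh6, 88.6% of the Tnni3, 73.0% of the Myl3 and 64.7% of the Myl2 UMIs. With the other 185 alone, no thick- or thin-filament gene was 4-fold lower in the myocytes. The counts on the higher side became 13 of 19 thick-filament, 15 of 20 thin-filament and 14 of 18 Z-disc genes. Myh6 then stood at 6.42 CPM in progenitors against 17.4 in the myocytes, the opposite order. The other 3 stayed lower in the myocytes, Myl2 at 7.95 against 41.2 CPM, Myl3 at 8.45 against 32.1 and Tnni3 at 5.47 against 20.4, short of 4-fold on CPM plus 10.

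Set against cardiomyocyte-type cells, which also build sarcomeres, the myocytes used other forms of the same proteins. Over 6049 measured genes 2.4% were 4-fold or more higher in the myocytes and 3.8% lower, with a median log2 ratio of -0.13. Among thin-filament genes 11 of 22 were higher and 3 lower (Tnni3, Tpm1 and Nebl), and among thick-filament genes 6 of 21 were higher and 5 lower (Myh6, Myh7, Myl2, Myl3 and Mybpc3). The summed thin-filament CPM hardly differed, at 33044 against 32279. The troponin Cs divided the sets: Tnnc2 made up 45.1% (44.1 to 46.0%) of the Tnnc1 and Tnnc2 UMIs in the myocytes and 0.0736% in cardiomyocyte-type cells. The slow and cardiac Tnnc1 was nonetheless abundant, at 2986 CPM against 2818. Acta1 made up 15.2% of the Acta1 and Actc1 UMIs against 0.139%, so the cardiac actin Actc1 (9722 CPM) was the main actin of this pair in the myocytes too. Cardiac troponin T (Tnnt2), often used to stain heart cells, was at 2122 CPM in the myocytes and found in 81 of 90, below the 5603 CPM of the cardiomyocyte-type cells. Cardiac troponin I (Tnni3) at 5.47 against 2171 CPM, Myl2 at 7.95 against 1692 and Mybpc3 at 1.99 against 331 parted the sets far more. Myl4, the atrial and embryonic essential light chain, was at 2717 CPM in the myocytes.

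**Figure D2:**
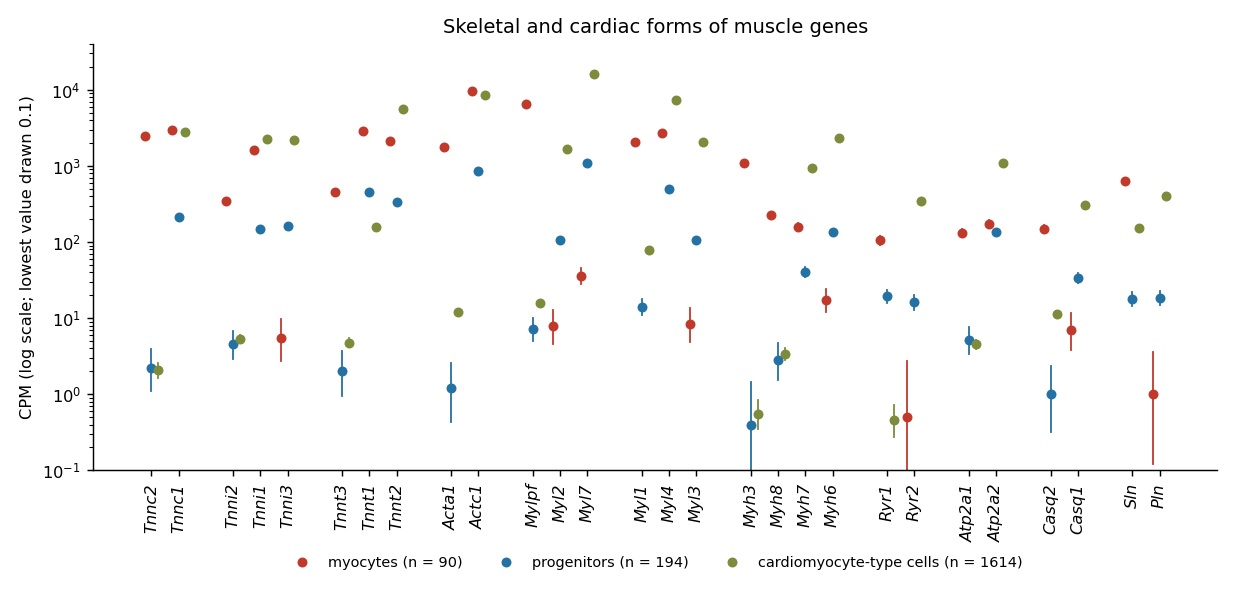
CPM (logarithmic axis) of paired skeletal, embryonic and cardiac forms of muscle genes in the myocytes (red, n = 90 cells), progenitors (blue, n = 194) and cardiomyocyte-type cells (green, n = 1614); points are sums over cells and lines their exact 95% Poisson intervals. The myocytes are high for Tnnc2, Acta1, Mylpf and Ryr1, share Tnnc1, Actc1, Tnnt2 and Myl4 with the cardiomyocyte-type cells, and are low for Tnni3, Myl2, Ryr2 and Pln.

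The calcium machinery was divided between the sets by gene form. Ryr1, the skeletal release channel, stood at 105 CPM and its cardiac relative Ryr2 at 1 UMI in all 90 cells together, so Ryr1 held 99.5% of the pair (lower bound 97.4%) against 0.132% in cardiomyocyte-type cells. Sarcolipin (Sln) and phospholamban (Pln), which both restrain the calcium pump, divided alike, with Sln at 99.8% of the pair in the myocytes (1275 against 2 UMIs) and 27.7% in cardiomyocyte-type cells. The pump genes were shared more evenly, Atp2a1 holding 43.2% of the Atp2a1 and Atp2a2 UMIs against 0.419%. The calsequestrins, which store calcium, ran against their usual names. Casq2, called the cardiac form, stood at 150 CPM in the myocytes and 11.3 in cardiomyocyte-type cells. Casq1, called the skeletal form, stood at 6.96 and 305 CPM. Casq1 was thus 4.43% (2.44 to 7.32%) of the pair in the myocytes and 96.4% in cardiomyocyte-type cells. The voltage sensor partners Cacng1 and Stac3, at 88.5 and 97.4 CPM, stood at 0.598 and 1.20 in progenitors, while the channel Cacna1s itself was seen in 20 cells. Of 17 measured genes of excitation and contraction 8 were 4-fold or more higher than in progenitors and none lower, with a median log2 ratio of 2.00. Against cardiomyocyte-type cells 5 of 21 were higher and 5 lower (Ryr2, Atp2a2, Casq1, Pln and Pvalb).

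Of 6 measured genes of the future nerve contact 3 (Chrna1, Chrng and Rapsn) were 4-fold or more higher than in progenitors and 1 lay below 1. The acetylcholine receptor subunits Chrna1 and Chrng stood at 91.9 and 81.5 CPM, against 0.399 and 2.99 in progenitors, and their clustering protein Rapsn at 157 against 18.9. The fetal subunit was the only one of its kind counted, with 164 Chrng UMIs and 0 of the adult Chrne, which allows Chrne up to 2.22% of the pair. Musk, the receptor that organises the synapse, was in 27 cells at 16.4 CPM. Of the dystrophin complex, which ties the cell's actin to the matrix, dystrophin (Dmd) stood at 11.9 CPM in 13 cells against 4.38 in progenitors, and alpha-sarcoglycan (Sgca) at 21.9 against 3.79. Energy genes passed for Eno3 (583 against 84.7 CPM) and Fabp3 of 21 measured, and for 7 of 21 when the 9 progenitors with high Myl7 were left out. Muscle creatine kinase (Ckm), a gene of mature fibres, was at 12.4 CPM in 15 cells.

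**Figure D3:**
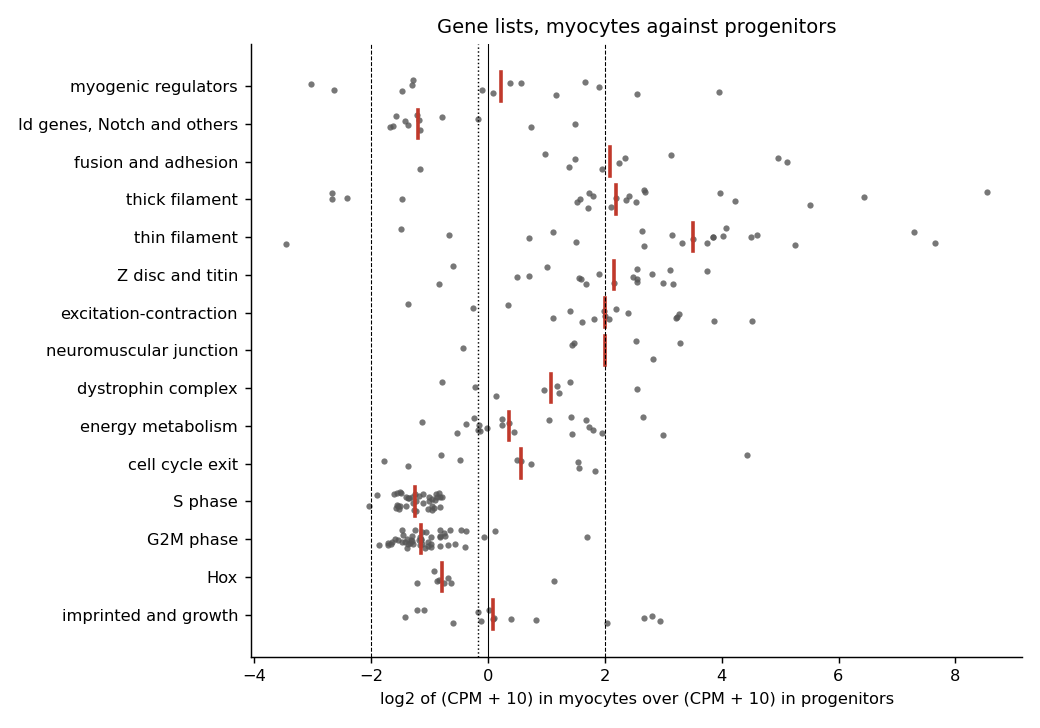
Log2 ratio of CPM plus 10 in the myocytes to that in the progenitors for each gene (grey point) of 15 lists, without Myog, Myh3 and Myl7, among genes at 20 CPM or more in either set; red bars are list medians, dashed lines are 4-fold and the dotted line is the median of all genes (-0.17). The thin-filament list has its median at 3.50, the S-phase list at -1.24 and the G2M-phase list at -1.15. Genes of the progenitor definition, such as Pax7, Msc and Myod1, are kept among the myogenic regulators.

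Ranked by size alone, muscle genes led. Myog and Myh3 belong to the rule, so their places in the ranks below are a description. The 15 genes with the largest ratios to the other day 11 cells, among those at 100 CPM or more and in at least 20% of myocytes, were Mylpf, Tnnc2, Myog, Acta1, Myh3, Neb, Myl1, Il17b, Mybph, Mymx, Tnnt3, Mymk, Myod1, Tnnt1 and Tpm2. In that comparison 1.88% of 6336 genes were 4-fold or more higher and 3.06% lower, with a median log2 ratio of -0.26. All but Il17b, a secreted cytokine of the interleukin 17 family, encode muscle proteins or regulators. Il17b stood at 487 (457 to 519) CPM in 59 of 90 myocytes, against 0.718 in the other cells and 0.598 in progenitors, and thinning left it in 60.2% of the myocytes and 0.398% of cardiomyocyte-type cells. Against the progenitors the first 10 were Mylpf, Tnnc2, Acta1, Myh3, Myl1, Il17b, Mybph, Tnnt3, Mymk and Mymx. The 10 furthest below the progenitors were Myl7, Msc, Pax7, Col4a1, Tagln2, Chchd10, Vcan, Tkt, Mcm3 and Hist1h1b, of which the first 3 belong to the definitions. Col4a1 (basement membrane collagen) stood at 17.4 CPM and Vcan (versican, a matrix proteoglycan) at 43.2, while Mcm3 (a replication helicase subunit) stood at 20.4. Chchd10 stood at 13.4 CPM, against 20.4 in the 185 progenitors with low Myl7, since the other 9 held 82.0% of its UMIs.

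The myocytes held fewer transcripts of dividing cells than the progenitors. The S-phase list summed to 1072 CPM against 3179 in progenitors, a ratio of 0.337 (0.322 to 0.353), and all 38 measured genes lay below 1 on CPM plus 10, 1 of them (Cdca7) by 4-fold. The G2M list summed to 4239 against 7058 CPM, a ratio of 0.601 (0.586 to 0.615), with 47 of 49 genes below 1 and none 4-fold apart. Jpt1, a member of that list, went the other way at 1209 against 369 CPM. Mki67 or Top2a, made in cycling cells, was found in 25 of 90 myocytes (27.8%, 18.9 to 38.2%) and in 145 of 194 progenitors (74.7%). At equal depth these were 17 and 54.1%. Cardiomyocyte-type cells stood at 27.8%, and 16.7% thinned. Of 11 measured genes of cell cycle exit 1 was 4-fold or more higher than in progenitors (Cdkn1a) and none lower, with 7 above and 4 below 1 and a median log2 ratio of 0.56. Cdkn1a (p21), the inhibitor that Myod1 induces, stood at 1229 (1181 to 1279) CPM against 47.4 in progenitors and 105 in all other cells, in 86 of 90 cells. Cdkn1c (p57) stood at 8226 against 2804 CPM, a ratio of 2.93 (2.87 to 3.0), and Cdkn1a made up 13% of the UMIs of this pair. The cyclins Ccnd1 and Ccnd2 stood at 10.4 and 51.7 CPM against 60.0 and 150 in progenitors, while Ccnd3, the D cyclin kept in muscle, stood at 396 against 280.

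Within the 90 cells, sarcomere, fusion and cell cycle genes differed with Myh3. The cells were divided at a Myh3 of 5 per 10000 into 43 below and 47 at or above, 1 of which passed 50. Their median depths were 22840 and 20337 UMIs and their median Myog 15.7 and 16.3 per 10000, a value that the rule bears on, since a cell with little Myh3 could enter only through Myog. Myh3 is a gene of the rule too, so the division orders cells by a measure that helped select them, and these values are a description. Mylpf stood at 768 CPM in the lower group and 12058 in the upper, and Tnnc2 at 218 and 4680. Acta1 was held by 4 of 43 and 43 of 47 cells, at 280 and 3213 CPM. Mef2c stood at 170 and 1365 CPM, a ratio of 8.03 (6.84 to 9.47), and was held by 22 and all 47. Myod1 differed little, from 433 to 523 CPM.

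The fusion genes did not run together. Mymk was higher in the upper group, at 570 against 197 CPM, while Mymx was lower, at 353 against 565, a ratio of 0.624 (0.545 to 0.714), and was held by 38 cells of each group. Several products of later muscle were higher in the upper group: Myh8 stood at 447 against 11.9 CPM, Mybph at 863 against 45.8, and Myf6 had 14 UMIs against 0. Chrna1 was held by 36 of 47 cells against 13 of 43, while 64 of the 212 Ryr1 UMIs and 37 of the 164 Chrng UMIs lay in the lower group. Progenitor and matrix genes lay in the lower: Vcan had 86 UMIs against 1, Mest (an imprinted gene of growing mesoderm) 308 against 38, and Sox8, a factor of muscle progenitors, 54 against 5. Summed thick-filament genes were 13.2 times higher in the upper group, thin-filament genes 4.57 times, and energy genes 1.14 times.

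**Figure D4:**
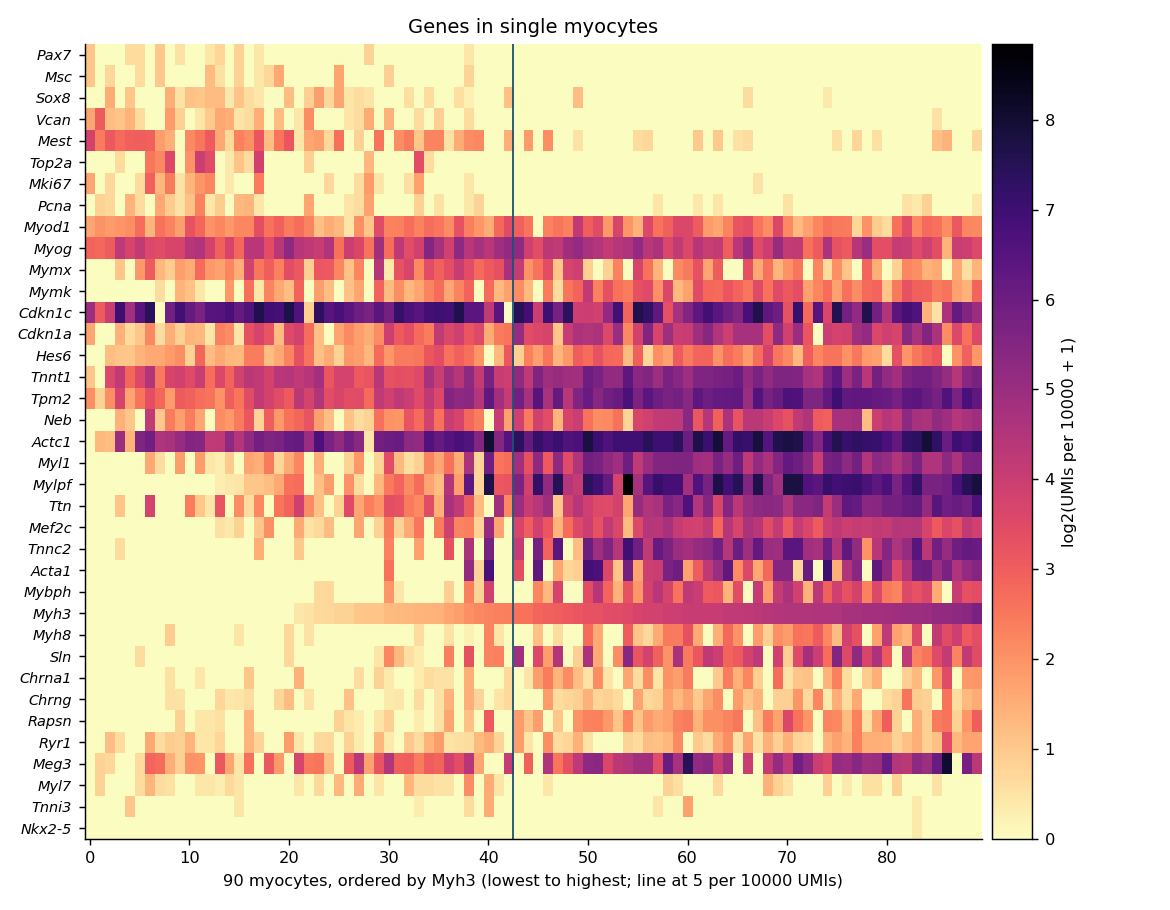
Level of 37 genes (rows) in each of the 90 myocytes (columns), as log2 of UMIs per 10000 plus 1, with the cells in order of Myh3 and the line at 5 per 10000. Top2a, Vcan and Sox8 are found mostly left of the line, Acta1, Tnnc2, Myh8 and Mef2c mostly right of it, and Myog and Myod1 on both sides.

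The transcripts of dividing cells were found mostly in the lower group. Mki67 or Top2a was found in 24 of 43 cells with Myh3 under 5 and in 1 of 47 at or above it. Thinned to 5000 UMIs, these were 15 of 43 (34.9%, 21.0 to 50.9%) and 0 of 45, which allows a share of up to 7.87%. The S-phase list had a median of 5 UMIs in 5000 in the lower group and 1 in the upper, against 14.5 in progenitors and 3 in cardiomyocyte-type cells, and the highest cell of the upper group held 4. The full G2M list differed little between the groups, with medians of 15 and 13, against 25 in progenitors and 7 in cardiomyocyte-type cells. Without Jpt1 the medians were 11 and 5, against 23.5 and 6. Top2a, with 207 UMIs in the lower group, had 0 in the upper. Cdkn1a ran opposite, from 528 to 1929 CPM, a ratio of 3.65 (3.32 to 4.03), while Cdkn1c was high in both, at 8965 and 7488 CPM. Dividing the cells at their median Mylpf instead, the S-phase ratio was 0.210 in place of 0.195, that of Mymx 0.633 and that of Cdkn1a 2.96.

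**Figure D5:**
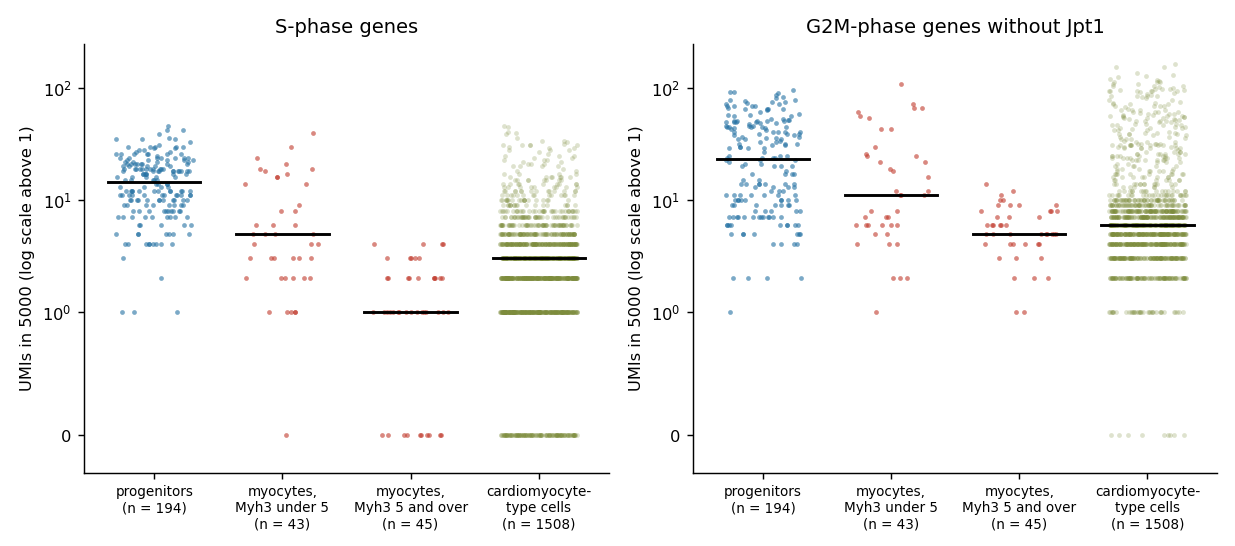
UMIs of S-phase genes (left) and of G2M-phase genes without Jpt1 (right) in each cell thinned to 5000 UMIs, on a scale that is logarithmic above 1; points are cells and black bars medians. The S-phase medians are 14.5 in progenitors, 5 in myocytes with Myh3 under 5 per 10000, 1 in those at or above it and 3 in cardiomyocyte-type cells.

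Genes known from head and from trunk muscle were both counted, Pax3 and Met at shares no higher than in other day 11 cells. Tbx1, a factor of the cardiopharyngeal mesoderm that gives heart and head muscle, was held by 13 of 90 (14.4%, 7.92 to 23.4%), against 28 of 194 progenitors (14.4%) and 0.372% of cardiomyocyte-type cells. With thinning it was left in 3.41% of the myocytes, 3 of 88 cells. Isl1, of the same mesoderm, was held by 31 (34.4%). At equal depth Isl1 was in 12.5% of the myocytes, 5.67% of progenitors, 4.64% of all other cells and 8.16% of cardiomyocyte-type cells. Of the trunk genes, Meox1 was held by 24 myocytes and Lbx1, of migrating limb and tongue precursors, by 12, which thinned to 9.09 and 5.68% against 3.01 and 3.08% of all other cells. Tcf15 was held by 29, or 10.2% thinned against 8.19% of all other cells. In progenitors the thinned shares of Meox1, Lbx1 and Tcf15 were 9.28, 7.22 and 16.5%, none of them below the share in the myocytes. Pax3 (4 cells, 4.44%) and Met (2 cells, 2.22%) were at or below the shares of all other cells, 9.32 and 4.28%. Tbx1 and Pax3 met in 1 cell, and Tbx1 and Lbx1 in 2. The head gene Tcf21 was found in 1 myocyte (1.11%) but in 15.5% of progenitors. Hox genes, which grade the trunk from front to back, summed to 231 (211 to 253) CPM in the myocytes, 409 in progenitors, 672 in all other cells and 150 in cardiomyocyte-type cells. A Hox UMI was held by 80 of 90 myocytes (88.9%), 99.5% of progenitors, 82.8% of all other cells and 56.9% of cardiomyocyte-type cells. These shares were not taken at equal depth, with median UMIs of 21562.5 in the myocytes and 12011 in all other cells. The 13 cells with Tbx1 stood at 131 (93.6 to 178) CPM of Hox and the other 77 at 249 (226 to 274), with 9 of the 13 holding a Hox UMI.

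Of 15 measured imprinted and growth genes 4 were 4-fold or more higher than in progenitors: Meg3, Rian, Dlk1 and H19. Against all other day 11 cells only H19 of 16 measured was that much higher and Igf1 that much lower, with a median log2 ratio of -0.02. Against cardiomyocyte-type cells 4 of 15 were higher (H19, Igfbp2, Meg3 and Rian) and Igfbp5 was lower. Meg3, a noncoding RNA of the Dlk1 cluster, stood at 1709 against 214 CPM and was found in 76 cells, with 638 CPM in the group with low Myh3 and 2780 in that with high Myh3. Rian, of the same cluster, stood at 209 against 24.3 CPM and Dlk1 at 270 against 58.0. H19 at 109 CPM rested on 7 cells. Igf2, the embryonic growth factor, stood at 786 against 599 CPM in all 90 cells.

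Most lists of markers of other cells had lower sums in the myocytes than in the other day 11 cells, and the neural crest and smooth muscle lists had higher sums. The 8 cardiomyocyte markers summed to 10.9 CPM against 857 in cardiomyocyte-type cells, Nppa and Nppb were at 0 and 81 of 90 myocytes held none of the 8. The 8 endothelial markers summed to 8.95 CPM with Cdh5, Kdr, Emcn and Tie1 at 0, the 6 endoderm markers to 2.98 and the 8 blood markers to 1.49. The 10 mesenchyme markers summed to 85.5 CPM against 1068 in all other cells, and the 10 neural markers to 118 against 487. The 6 neural crest markers summed to 60.6 CPM against 19.8 in all other cells and 27.5 in progenitors, with Sox10 at 0, and 43.7 of it was Erbb3, which muscle precursors also make. The 4 smooth muscle markers summed to 3034 CPM against 685, of which Acta2 was 2916, while Myh11, their defining gene, was at 0. Acta2 was held by 85 of 90 myocytes at 0 to 96.8 per 10000 (median 26.4).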

How the data were processed

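Single-cell 3′ libraries of dissociated Zx1 gastruloids (1 library per day, 4 days) were deposited by the authors as filtered gene-by-cell matrices of raw UMI counts, made with Cell Ranger on mm10. The labels name version 3.1.0 and the header of the day 11 matrix names 6.0.1. No normalised values were used. From the deposited counts, cells with 2000 or more UMIs and under 20% mitochondrial UMIs were kept, and members were taken by the stated limits. The members, sets and gene lists were chosen with earlier results of these data known. UMIs were summed per set and given as CPM with exact Poisson intervals, shares as percent with Clopper-Pearson intervals, and ratios with exact conditional binomial intervals. With 1 library per day nothing was tested, and genes were counted as different at a 4-fold ratio of CPM plus 10 among genes with at least 20 CPM in either set. The lists hold 457 genes in 25 lists, of which the text may name any, beside the 15 largest ratios to other cells and the 10 largest and 10 smallest to progenitors (100 CPM or more and a UMI in at least 20% of cells of the higher set). Mitochondrial, ribosomal protein and sex-linked marker genes were not named by size, and some genes of the lists are not reported here. Cells were thinned once to 5000 UMIs for shares and cycle genes. Doublets were scored but not removed, because the automatic threshold marked 1 of 8730 cells, and leaving out the highest 8% of scores was an alternative. The fold calls were tested on simulated data. Promoter and microRNA sequences came from RefSeq (GRCm38.p6). Total UMIs were 149169498 on day 11. Python 3.11.15, numpy 2.4.6, scipy 1.17.1, pandas 2.3.3 and scanpy 1.11.5 were used.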

Additional observations from a re-analysis of the deposited data

How the results depend on the processing

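Of 129 recomputed main values 99 stayed within their interval or within 1.5 times and none changed direction; of 400 recomputed ratios of the genes named by size 399 kept their direction, all but Pax7 against other cells (1.08 as reported, 0.874 at 10 per 10000). The number of myocytes was 86 to 91 in all settings but a limit of 10 per 10000, which left 81. Without the highest 8% of doublet scores the ratios to other cells were 921 for Mylpf, 4790 for Tnnc2 and 522 for Acta1, and the S-phase and G2M ratios to progenitors 0.321 and 0.583. At 10 per 10000 Mylpf stood at 736, S phase at 0.281 and G2M at 0.621. Without the Myl7 limit these were 718 for Mylpf and 0.640 for G2M. With means over cells Mylpf, Tnnc2 and Acta1 stood at 828, 3460 and 633 times the other cells, S phase at 0.306 and G2M at 0.651 times progenitors. Scaling by the median gene (0.944 for other cells, 0.919 for progenitors) gave 713 for Mylpf, 0.367 for S phase and 0.654 for G2M. A pseudocount of 1 CPM gave 213 higher and 506 lower genes against other cells (119 and 194 as reported), 257 and 124 against progenitors (143 and 22) and 272 and 535 against cardiomyocyte-type cells (145 and 230). With progenitors taken by 2 UMIs of the 4 genes in sum, 63 genes were lower, Mylpf, Tnnc2 and Acta1 were 210, 303 and 251 times higher and G2M stood at 0.520. With progenitors of low Myl7 alone, Acta1 was 7890 times higher. In that setting Myh6 and Casq1, which are not among the genes named by size, changed from lower to higher in the myocytes. The causes were not tested. No paired analysis was possible because each day was a single library. The ratios against sets with few UMIs are the least fixed, and transcripts under about 3 UMIs in the 90 cells cannot be told from 0. The division by Mylpf was added after the data had been seen.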
